A study of Mus musculus with 2 samples.

Results

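The spots described here are the places in 2 mouse brain sections where the transcripts of dopamine neurons were most concentrated. RNA was captured with 10x Visium, whose slides carry a grid of barcoded spots; each spot records unique molecular identifiers (UMIs, which count captured transcripts) from the patch of tissue above it, which may contain more than 1 cell. Every spot with at least 500 UMIs was scored by the mean, over the genes Slc6a3, Th, Slc18a2 and Ddc, of ln(1 + 10000 × UMIs of the gene / UMIs of the spot), and the 60 highest-scoring spots of section 1 and the 15 highest of section 2 were taken. These 75 dopamine marker spots are 75 of 5561 spots, 1.98% of the 3030 spots of section 1 and 0.593% of the 2531 of section 2. Both sections came from fresh-frozen brain of wild-type C57BL/6 mice, were 10 µm thick and carry the label ZT12, so there is 1 group and no treatment, and age is not among the labels used here. The labels do not say that the sections came from separate animals, so a p-value below does not measure a spread between animals. It rests on a spread pooled over genes, and a difference between these sections may be technical.

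Dopamine neurons of the ventral midbrain, in the substantia nigra and the ventral tegmental area, make dopamine from tyrosine with tyrosine hydroxylase (Th) and aromatic amino acid decarboxylase (Ddc), load it into vesicles with the transporter VMAT2 (Slc18a2) and take it back up with the dopamine transporter (Slc6a3). Th, Ddc and Slc18a2 are shared with other monoamine neurons, and Ddc is also found outside neurons, while Slc6a3 is the most restricted of the set. The neurons lie close to GABA neurons of the substantia nigra and to myelinated fibre tracts, so a spot over them also samples those cells.

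The letters around annotated starts of the genes that chose the spots are shown first, because these genes define the spots. Those of Dlk1, the gene with the smallest adjusted p of those tested, are shown with them. Each window, from RefSeq on GRCm38.p6 (the assembly also called mm10), runs from 250 bases before a start annotated for the gene to 20 bases after it, 5′ to 3′ on the gene's strand. For Slc6a3, Dlk1 and window 2 of Ddc this start lies inside the gene positions given below. Those windows thus lie within the gene as given there, not before it. Capitals mark matches to 7 motifs searched on both strands: the cyclic AMP response element or CRE (TGACGTCA), the nuclear receptor element or NBRE (AAAGGTCA), a TATA box spelled TATAAA, a forkhead or FOX motif spelled TGTTTAC and also searched as TATTTAC, an E-box (CACGTG), a bicoid-type motif called PITX here (TAATCC) and a homeobox motif (TTAATTA).
Th, chr7:142899976-142900245, strand -: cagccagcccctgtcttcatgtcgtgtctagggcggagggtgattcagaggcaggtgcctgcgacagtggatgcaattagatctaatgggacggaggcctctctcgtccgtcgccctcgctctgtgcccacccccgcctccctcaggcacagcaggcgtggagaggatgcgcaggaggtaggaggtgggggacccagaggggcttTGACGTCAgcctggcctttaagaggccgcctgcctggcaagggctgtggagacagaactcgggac
Slc18a2, chr19:59260628-59260897, strand +: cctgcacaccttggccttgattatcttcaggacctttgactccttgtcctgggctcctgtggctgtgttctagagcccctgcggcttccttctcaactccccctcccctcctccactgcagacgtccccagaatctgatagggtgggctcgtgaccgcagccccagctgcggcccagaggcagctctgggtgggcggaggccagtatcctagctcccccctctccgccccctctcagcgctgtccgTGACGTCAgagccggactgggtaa
Slc6a3, chr13:73536497-73536766, strand +: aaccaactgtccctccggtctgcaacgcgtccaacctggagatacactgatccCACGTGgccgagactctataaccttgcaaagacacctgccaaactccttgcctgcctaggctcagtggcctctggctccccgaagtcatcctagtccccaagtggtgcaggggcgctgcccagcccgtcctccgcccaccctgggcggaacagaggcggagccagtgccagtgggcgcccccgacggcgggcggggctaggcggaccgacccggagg
Ddc window 1, chr11:11898125-11898394, strand -: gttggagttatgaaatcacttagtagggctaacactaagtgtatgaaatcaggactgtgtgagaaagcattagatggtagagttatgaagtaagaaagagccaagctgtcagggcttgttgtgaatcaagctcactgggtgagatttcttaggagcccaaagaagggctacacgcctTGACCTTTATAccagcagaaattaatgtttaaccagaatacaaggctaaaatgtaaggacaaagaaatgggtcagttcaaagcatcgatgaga
Ddc window 2, chr11:11890389-11890658, strand -: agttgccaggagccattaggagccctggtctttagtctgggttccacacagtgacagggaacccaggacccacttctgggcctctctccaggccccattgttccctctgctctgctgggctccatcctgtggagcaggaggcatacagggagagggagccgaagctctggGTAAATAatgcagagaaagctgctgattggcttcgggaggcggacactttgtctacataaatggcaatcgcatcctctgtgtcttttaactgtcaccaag
Dlk1, chr12:109452573-109452842, strand +: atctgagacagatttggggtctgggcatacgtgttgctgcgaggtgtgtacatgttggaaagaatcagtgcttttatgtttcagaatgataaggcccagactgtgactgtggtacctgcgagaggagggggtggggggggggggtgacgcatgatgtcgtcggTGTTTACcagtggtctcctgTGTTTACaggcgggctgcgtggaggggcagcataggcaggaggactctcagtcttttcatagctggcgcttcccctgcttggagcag
Th held a CRE 45 to 38 bases before its start. Slc18a2 held the same letters across its start, with 4 bases before it and 4 after. The window was lengthened by 20 bases after this match was noticed, and among matches lying wholly before the start Slc18a2 had none. A CRE occurred in 1.73% of 32851 windows of this length (1.55% counting only the bases before the start). Slc6a3 held an E-box 197 to 192 bases before the start used here, a motif in 6.57% of windows. Ddc has 2 annotated starts: window 1 held an NBRE (1.42% of windows) 73 to 66 bases before the start on the opposite strand, overlapping a TATA match (12.9%) at 68 to 63, and window 2 held a FOX match (6.12%) 80 to 74 bases before the start on the opposite strand. Dlk1 held 2 FOX matches, 87 to 81 and 67 to 61 bases before the start used here. No letters of PITX (6.58% of windows) or homeobox (2.89%) were found in these 6 windows. A match describes letters only and says nothing about a factor at the site.

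The values of the 4 scoring genes chose the spots and are given as a description. Slc6a3 (chromosome 13, 73536128 to 73578672) stood at 493 CPM (UMIs scaled to equal sums) in the summed marker spots of section 1 and 7.04 in the other spots, and at 183 and 1.06 in section 2. Th (chromosome 7, 142892779 to 142899995) stood at 250 against 6.75 CPM in section 1 and 135 against 4.30 in section 2. Slc18a2 (chromosome 19, 59260878 to 59296012) was at 164 against 2.86 CPM and 87.4 against 1.40. Ddc (chromosome 11, 11814101 to 11898144) was at 237 against 17.6 CPM and 191 against 14.7, so it had the highest level of the 4 outside the marker spots. In section 1 a marker spot held 0 to 44 Slc6a3 UMIs with a median of 4, and in section 2 it held 0 to 13 with a median of 1. Other spots held at most 4 and 2.

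The spots were unequal among themselves. All 4 genes were detected in 33 of the 60 spots of section 1 and in 7 of the 15 of section 2. The 10 spots with the highest scores held 52.2% of the 975 UMIs of the 4 genes in section 1, and 86.7% of 150 in section 2. At least 10 UMIs of the 4 genes were found in 29 and 6 marker spots, and in 0 other spots of either section. At the lower end, 9 and 3 marker spots held at most 3 such UMIs, and 9 and 6 held no Slc6a3. The score fell from 2.43 through a median of 0.733 to 0.497 in section 1 and from 1.46 through 0.607 to 0.402 in section 2, and the first spots left out scored 0.483 and 0.352. The last spot inside in section 1 had 2 Th and 1 Ddc UMIs among 8502, while the first outside had 4 Slc6a3, 1 Th and 1 Slc18a2 among 19683. A shallow spot thus reached the score with fewer UMIs of these genes. The marker spots had a median of 14311 UMIs against 18217.5 in the other spots of section 1, and 16427 against 21568.5 in section 2. The reason for this lower depth was not tested. The lowest-scoring marker spots carry the label weakly, and those without Slc6a3 are not shown by this gene to hold dopamine neurons.

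**Figure D1:**
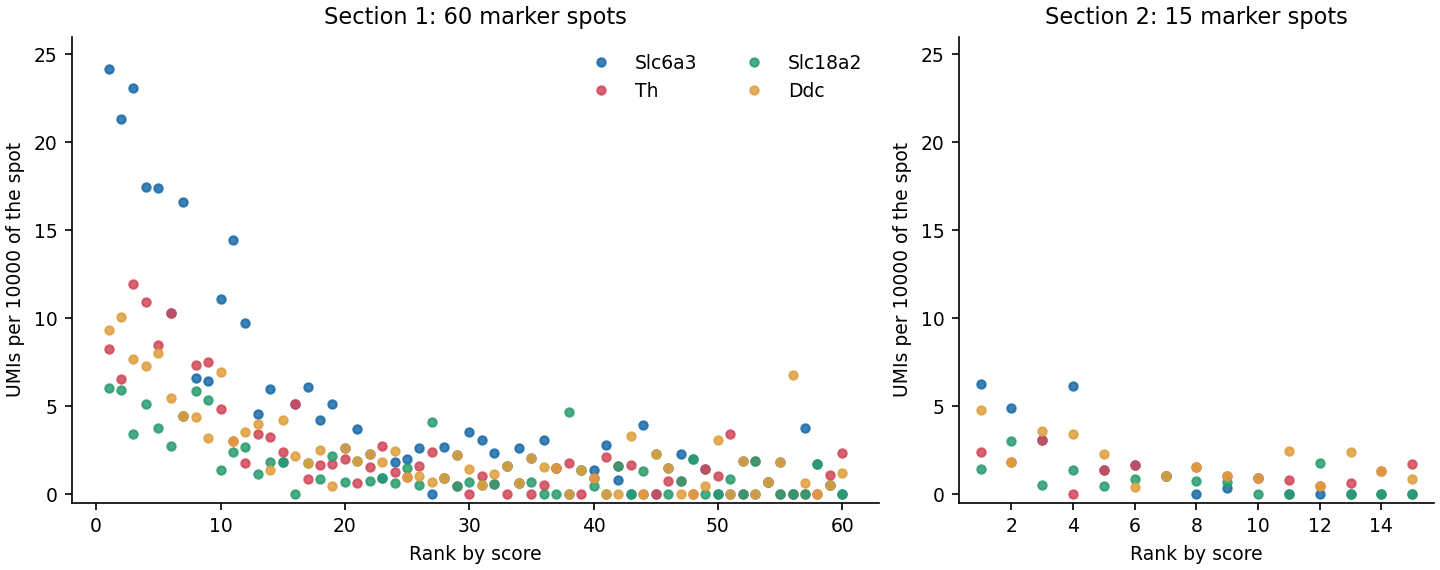
UMIs of Slc6a3, Th, Slc18a2 and Ddc per 10000 UMIs of each marker spot (y axis), in order of score (x axis), in section 1 (left) and section 2 (right). Points are spots, not replicates; Slc6a3 reaches 24.2 in section 1 and 6.25 in section 2, and the lowest-ranked spots hold few UMIs of any of the 4 genes.

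In section 1, 2 marker spots carried the genes of noradrenaline neurons, which share Th, Ddc and Slc18a2 with dopamine neurons but convert dopamine further with dopamine beta-hydroxylase (Dbh). The spots at ranks 27 and 38 had 0 Slc6a3 UMIs, 16 and 12 Dbh UMIs, and 4 and 8 UMIs of the noradrenaline transporter gene Slc6a2. Phox2a, a transcription factor of noradrenaline neurons, had 0 and 2 UMIs there. No other kept spot of either section held 3 or more Dbh and Slc6a2 UMIs, and the 15 marker spots of section 2 held 0 of each. The label of midbrain dopamine neurons therefore does not hold for these 2 spots. They held 20 of the 140 Slc18a2 UMIs of the 60 spots, 8 of 74 Slc10a4, 14 of 94 Sncg, 3 of 105 Ret and 4 of 119 Dlk1, and 0 of the 24 Drd2 and 17 Chrnb3 UMIs. Dbh (chromosome 2, 27165507 to 27183204) was at 34.0 against 0.554 CPM in section 1, and 28 of its 29 marker spot UMIs came from these 2 spots. The genes that define serotonin neurons were nearly absent: Slc6a4 and Fev had 0 UMIs in the marker spots of both sections and Tph2 had 1 and 0. A count of 0 allows up to 3.52 CPM in section 1 and 11.9 in section 2. Gata3, a transcription factor of the serotonin list that is also found in GABA neurons, was at 12.9 against 2.75 and 11.9 against 2.86 CPM, with 11 and 3 UMIs in the marker spots, through which alone it passed the filter on low levels.

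**Figure D2:**
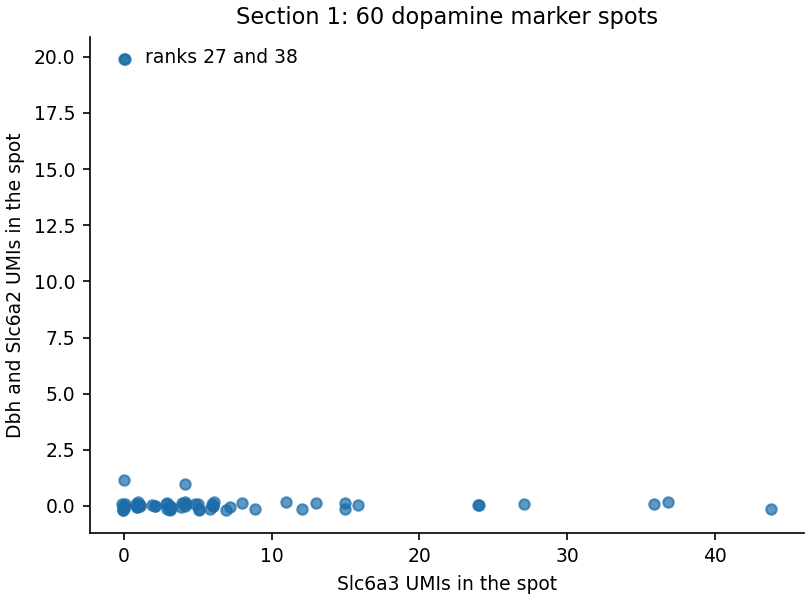
Summed UMIs of the noradrenaline genes Dbh and Slc6a2 (y axis) against Slc6a3 UMIs (x axis) in each of the 60 marker spots of section 1, with a small random shift so that points do not hide each other. The spots of ranks 27 and 38 stand apart at 20 Dbh and Slc6a2 UMIs and 0 of Slc6a3; no other spot passes 1 on the y axis.

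The other genes were compared between the marker spots and all other spots of the same section. UMIs were summed per section and class, which gave 4 sums, and fitted with edgeR's quasi-likelihood F test with a term for the section and the section as the replicate (n = 2). The spots were chosen by 4 genes of the same cells, so genes that those cells also use go with the choice. A higher level in a spot can mean more cells of a type or more RNA per cell, which cannot be told apart. Of 11251 genes tested, 292 (2.60%) were higher in the marker spots and 346 (3.08%) lower at a Benjamini-Hochberg adjusted p under 0.05, which is 638 genes (5.67%) in all. Of these, 629 had the same sign in both sections. The median log2 fold change over all tested genes was 0.0186. These counts depend on the model: without the section term 2 genes were higher and 0 lower, and DESeq2 called 46 higher and 60 lower. Without TMM factors 227 were higher and 409 lower, so the share of calls that were higher went from 45.8% to 35.7%.

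Genes of dopamine neurons that took no part in the score were among the largest rises. Of the 16 listed, 14 had the mean CPM of at least 5 needed for testing. Chrna6, Chrnb3 and Gch1 reached it only through the marker spots, where they were high, so their calls were partly fixed by the filter and their values below are a description. The other 11 reached it by the level in the other spots alone, and of these 8 were higher and 0 lower, beside 282 higher of the 11047 genes (2.55%) that did so over the whole table.

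Slc10a4, a transporter-like protein of monoamine and cholinergic vesicles (chromosome 5, 73006904 to 73012955), stood at 86.8 CPM in the marker spots and 3.62 in the others of section 1, and at 43.7 and 8.58 in section 2. Its log2 fold change was 3.89 ± 0.30 (SE, adjusted p = 2.75e-35), 4.59 in section 1 alone and 2.41 in section 2. Gch1, which makes the cofactor that tyrosine hydroxylase needs (chromosome 14, 47153895 to 47189413), was at 14.1 against 1.42 CPM and at 19.9 against 1.51. These levels rested on 12 and 5 UMIs in the marker spots. Qdpr, which recycles that cofactor, was higher by 0.40 ± 0.10, with 621 against 484 and 679 against 536 CPM. Its call was lost in 6 of 18 other fits, and which cells of a spot held Qdpr was not tested. Of the other genes of cofactor supply and dopamine breakdown, Pts, Spr, Maoa, Maob and Aldh2 were not called, at 0.01 to 0.33, and Gchfr was below the filter.

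Listed receptor genes came next, and which cells of a spot held them was not tested. Chrna6 and Chrnb3, nicotinic receptor subunits that neighbour each other on chromosome 8, were at 19.9 CPM each in the marker spots of section 1, against 0.934 and 1.42 in the others. In section 2 they were at 11.9 against 0.917 and at 27.8 against 1.58. The marker spots held 17 and 3 UMIs of Chrna6 and 17 and 7 of Chrnb3. Of the 8 listed nicotinic subunit genes, 2 were tested by their level in the other spots, and 1 of these, Chrna4, was higher by 0.60 ± 0.17. Ret, the signalling receptor for the GDNF family (chromosome 6, 118151748 to 118197744), was at 123 against 13.4 CPM and at 87.4 against 10.7. It was higher by 3.20 ± 0.22 (adjusted p = 1.92e-44), 3.20 and 3.06 in the sections alone. Gfra1, a coreceptor of Ret, was higher by 1.29 ± 0.22, and the other 7 tested of the 10 listed trophic receptor genes were not called. Of 15 listed monoamine and peptide receptor genes 9 were tested, 8 of them by their level in the other spots. Of these 8, 3 were higher and 5 were not called, beside 2.55% higher over all genes so tested. Ntsr2, a neurotensin receptor, was higher by 0.54 ± 0.12, with 323 against 219 and 262 against 205 CPM. It was thus plentiful outside the marker spots too. Hcrtr1, a receptor for orexin, was at 12.9 against 3.98 and 27.8 against 4.51 CPM, passed the filter only through the marker spots and lost its call in 6 of 16 other fits. The dopamine autoreceptor gene Drd2 was at 28.2 against 8.98 CPM in section 1 but 15.9 against 18.9 in section 2. It was called at 1.18 ± 0.35, and section 2 alone gave -0.08. Ntsr1, another neurotensin receptor, was called at 1.54 ± 0.46 with 18 and 2 UMIs, and section 2 alone gave 0.48.

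Dlk1, a membrane protein of the Notch ligand family (chromosome 12, 109452485 to 109463336), was at 140 against 19.4 CPM and at 87.4 against 18.6. It was higher by 2.74 ± 0.18 (adjusted p = 1.19e-47), 2.85 and 2.26 in the sections alone. Dlk1 and Ret kept the call in all 18 other fits tried. Sncg, which encodes gamma-synuclein, was higher by 2.24 ± 0.21, with 110 against 21.3 and 31.8 against 12.9 CPM. Sncb, its paralog, was not called (0.15). Cpne7, Tacr3 and Erbb4 were not called, at 0.04, 0.46 and 0.15. Kcnj6, a potassium channel of substantia nigra neurons, had 1 UMI in the marker spots of each section. This was 1.17 and 3.97 CPM, against 1.28 and 1.17 in the other spots. The gene was thus scarce in both classes of spot and was not tested, nor was Gucy2c.

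**Figure D3:**
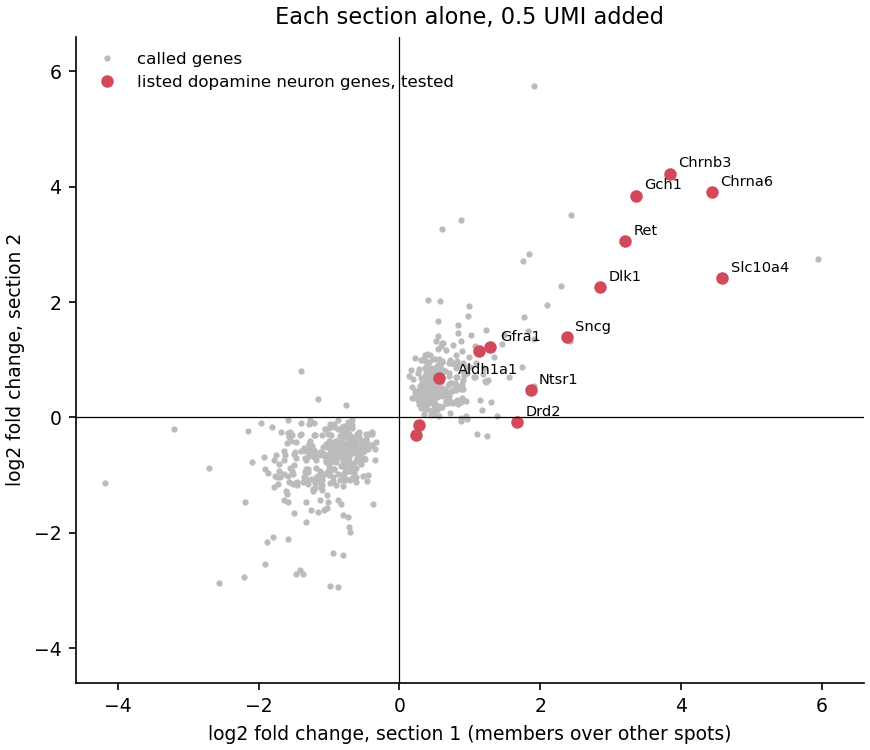
log2 fold change of marker spots over other spots in section 1 (x axis) and section 2 (y axis), each section alone with 0.5 UMI added to each sum. Grey points are the 638 called genes and red points the 14 tested genes of the dopamine neuron list, of which the called ones are named; Ret and Dlk1 lie at similar values in both sections, and Drd2 lies near 0 in section 2.

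The transcription factors of midbrain dopamine neurons were at the limit of this depth. Of 10 listed, 3 were tested by their level in the other spots, and 0 of these were called. Over all genes so tested 2.55% were higher. In all, 4 of the list were tested and 1 was called. This was En1, which these neurons need to survive (chromosome 1, 120602487 to 120607991), at 16.4 against 3.13 and 7.94 against 0.863 CPM, with 14 and 2 UMIs in the marker spots. It passed the filter only through the marker spots, so its call is not read as support. Nr4a2, which drives Th and Slc6a3, was at 23.5 against 13.3 and 15.9 against 9.55 CPM, a difference of 0.85 ± 0.38 that was not called (adjusted p = 0.208). Satb1 (-0.41) was not called. Pitx3, En2, Foxa1, Foxa2, Lmx1a and Lmx1b were below the filter. Foxa1 was at 8.21 against 0.588 and 3.97 against 0.108 CPM, on 7 and 1 UMIs in the marker spots. Pitx3 was at 2.35 against 0.208 and 3.97 against 0.270 CPM, on 2 and 1 UMIs. Foxa2 had 4 and 0 UMIs in the marker spots and 0 and 1 in the others. En2, Lmx1a and Lmx1b were at 4.69 against 3.72, 2.35 against 1.26 and 5.87 against 1.47 CPM in section 1. In the marker spots of section 2 these genes had 0 UMIs. Such low counts are a description only.

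Genes that tell the groups of midbrain dopamine neurons apart gave an uneven picture. For comparison, 2.60% of all tested genes were higher and 3.08% lower. Of 9 genes of the ventral tier of the substantia nigra, 6 were tested and 1 was higher: Aldh1a1, which oxidises the aldehyde made from dopamine (chromosome 19, 20492583 to 20643463). It was at 334 against 153 and 187 against 85 CPM (1.18 ± 0.12, adjusted p = 1.96e-18). Sox6, Ndnf, Kcns3, Igf1 and Vcan were not called, at -0.0044 to 0.44, and Aldh1a7, Anxa1 and Kcnj6 were below the filter. Of 12 genes of the ventral tegmental area and dorsal tier, all tested, 0 were higher and 3 lower, and the median was -0.674. The lower genes were Cck (-1.24 ± 0.11, with 203 against 587 and 381 against 730 CPM), Neurod6 (-1.11 ± 0.28) and Crym (-1.12 ± 0.20), which are also genes of cortex and hippocampus. Calb1 and Calb2, calcium-binding proteins, were not called, at -0.48 and 0.35, nor were Slc17a6, Otx2, Grp, Lpl, Adcyap1, Vip and Cd24a.

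Within the marker spots of section 1, Slc10a4, Ret and Dlk1 were lower at later ranks, a description since the score of the 4 genes set the ranks. In section 1 Slc10a4 was at 212 CPM in ranks 1 to 15, 60.3 in 16 to 30, 44.1 in 31 to 45 and 11.6 in 46 to 60, and at 6.90 in the 60 spots after them. Ret ran 265, 92.4, 58.8 and 58.0 and then 23.0, and Dlk1 ran 340, 80.4, 68.5 and 46.4 and then 52.9. For Dlk1 the last 15 marker spots thus held no more than the 60 spots after them. Gad1 did not follow that order, at 450, 482, 529 and 545 and then 497 CPM. In section 2 Ret was at 150 CPM in the first 5 spots, 45.7 in the next 5, 56.4 in the last 5 and 15 in the 15 spots after them. Across the 60 spots of section 1, which share 1 library, differ in depth and were chosen in part by Slc6a3, the Spearman correlation with Slc6a3 per 10000 UMIs was 0.56 for Slc10a4, 0.53 for Ret, 0.51 for Dlk1 and 0.42 for Sncg. For Snap25, a gene of neurons in general, it was 0.53, below Slc10a4, close to Ret and above Dlk1 and Sncg. It was 0.15 for Aldh1a1, 0.22 for Gad1 and -0.24 for Mbp. Aldh1a1 was highest, at 43 UMIs, in the spot of rank 6.

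**Figure D4:**
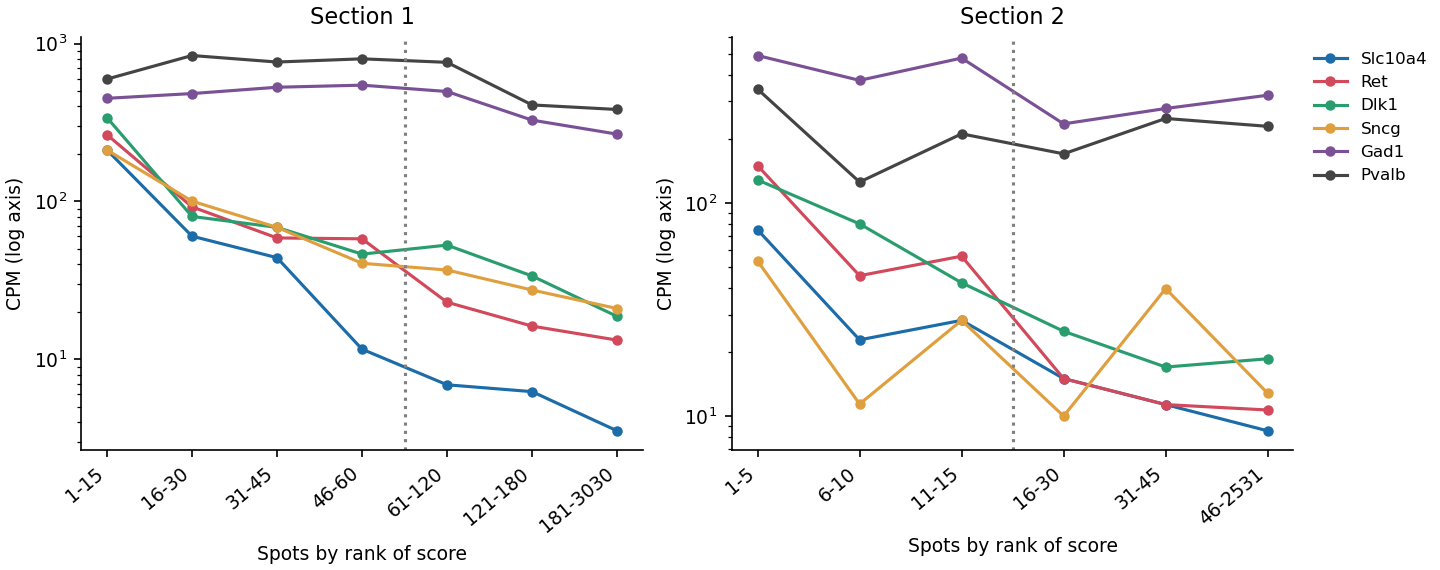
CPM (log axis) of 6 genes in spots binned by rank of score (x axis), in section 1 (left) and section 2 (right); the dotted line marks the last marker spot. Slc10a4, Ret and Dlk1 are highest in the first bin of both sections, and Gad1 and Pvalb stay within a narrow range across the marker spots of section 1.

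When every spot was thinned to 3000 UMIs, leaving out 1 marker spot and 94 others of section 1 and 11 others of section 2, a Ret UMI was found in 23.7% of marker spots (14 of 59, exact 95% interval 13.6 to 36.6) against 3.76% of other spots in section 1. In section 2 it was in 26.7% (4 of 15, 7.79 to 55.1) against 3.27%. Slc10a4 was found in 16.9% (8.44 to 29.0) against 1.46% and in 20% (4.33 to 48.1) against 2.04%. Dlk1 was found in 35.6% (23.6 to 49.1) against 5.84% in section 1, while in section 2 its 13.3% (1.66 to 40.5) had an interval that held the 5.27% of other spots. Without thinning the Ret shares were 61.7% and 66.7% of marker spots. The intervals are exact Clopper-Pearson ones and cover counting error only.

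Among genes with at least 10 UMIs in the marker spots of both sections, the leading higher genes outside the dopamine list were Ebf3 (2.0 ± 0.36), Pbx3 (1.5 ± 0.21), Lhx1os (1.46 ± 0.35), Lbhd2 (1.27 ± 0.39), Pnoc (1.14 ± 0.26), Six3 (1.14 ± 0.25), Klhdc8a (1.09 ± 0.18), AW551984 (1.07 ± 0.28), Igsf1 (1.03 ± 0.25) and Kat2b (1.0 ± 0.27). Lbhd2 lost its call in 11 of 16 other fits. Ebf3, Pbx3 and Six3 encode transcription factors and Pnoc the precursor of the peptide nociceptin. Ebf3 differed between the sections, at 17.6 against 9.90 CPM in section 1 and 79.4 against 7.57 in section 2. Lhx1os is an antisense RNA, and whether the counting used strand is not stated for these files. Pbx3 was at 57.5 against 20.7 and 83.4 against 31.8 CPM. In ranks 1 to 15 of section 1, Six3 and Igsf1 were each at 17.6 CPM, below the 20.2 and 21.0 of the other spots. Ebf3, Pbx3, Lhx1os, Pnoc and Klhdc8a were above the other spots there. Ranks 61 to 120 of section 1 held 38.0 CPM of Six3 and 23.0 of Lhx1os, against 35.2 and 22.3 in its marker spots. They held less than the marker spots of Ebf3, Pbx3, Pnoc, Igsf1 and Klhdc8a. In section 2, ranks 16 to 30 held less Six3 and Lhx1os, at 10.0 CPM each.

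Of 7 GABA neuron genes 5 were higher, 1 was lower and 1 was not called, with a median of 0.723. Over all tested genes 2.60% were higher and 3.08% lower. Slc32a1, the vesicular GABA transporter, was at 370 against 199 and 389 against 248 CPM (0.85 ± 0.11). Gad1, which makes GABA, was higher by 0.77 ± 0.11, with 498 against 271 and 449 against 320 CPM. Pvalb was at 749 against 388 CPM in section 1 but 230 against 229 in section 2 (0.72 ± 0.11), and Sst was the lower gene (-0.53 ± 0.12). In section 1 the spots of ranks 61 to 120 held 413 CPM of Slc32a1, 497 of Gad1 and 760 of Pvalb. These levels were thus not particular to the marker spots there. In section 2 ranks 16 to 30 held less, at 195, 235 and 170 CPM. Of 9 tested axonal genes 5 were higher, led by the neurofilament genes Nefm (0.61 ± 0.11) and Nefh (0.56 ± 0.13). Of the other higher ones, Nefl lost its call in 10 and Ina in 9 of 18 other fits.

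Oligodendrocyte genes were higher in 8 of 9 cases, with a median of 0.533, beside 2.60% higher over all tested genes. Mbp, a myelin protein gene, was at 7589 against 5465 CPM in section 1 and 7091 against 4591 in section 2 (0.59 ± 0.07). Spots next in rank held no less Mbp, at 8095 CPM in ranks 61 to 120 of section 1 and 10627 in ranks 16 to 30 of section 2. The summed level of the 9 genes was 15740 against 11404 CPM and 18745 against 12123. Of 8 microglial genes 5 were higher (median 0.628), led by C1qb at 0.76 ± 0.13. C1qc was called at 0.72 ± 0.17 but at -0.07 in section 2 alone. Of 8 astrocyte genes 4 were higher (median 0.359), led by the GABA transporter gene Slc6a11 at 0.97 ± 0.11, and 0 of 6 endothelial genes were called. The summed red blood cell genes were lower in section 1, at 549 against 1457 CPM, and higher in section 2, at 2533 against 1421. In section 2 the spots of ranks 11 and 14 held 113 and 106 Hbb-bs UMIs. The share of mitochondrially encoded UMIs was 16% against 14.8% in section 1 and 14.5% against 14.3% in section 2. The part that these other cells, RNA from blood or depth play in the results for neuronal genes was not tested.

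Among the leading falls were Inka2 (-1.74 ± 0.30), Kcnf1 (-1.72 ± 0.29), Wipf3 (-1.58 ± 0.20), Egr1 (-1.58 ± 0.19), Cacna1c (-1.57 ± 0.33), Tbr1 (-1.54 ± 0.28) and Gda (-1.53 ± 0.20). Tbr1 is a transcription factor of cortical glutamate neurons, and Egr1 is an activity-induced one. Of 7 genes of cortical and hippocampal glutamate neurons 5 were lower and 0 higher (median -1.15). Over all tested genes 3.08% were lower and 2.60% higher. Slc17a7, their vesicular glutamate transporter, was at 208 against 620 and 286 against 627 CPM (-1.37 ± 0.12). Of 6 thalamus genes 3 were lower, led by Tnnt1 (-1.30 ± 0.25) and Prkcd (-1.27 ± 0.17), and of 7 striatal genes 1, Penk (-0.86 ± 0.17). Of 14 tested pacemaking and excitability genes 4 were lower and 0 higher, led by the calcium channel genes Cacna1c and Cacna1d (-1.42 ± 0.45), of which Cacna1d lost its call in 13 of 16 other fits. Of 20 vesicle release genes 7 were lower and 3 higher: Stx1a stood at -1.11 ± 0.21 and Sv2c at 0.94 ± 0.21, with Sv2c at -0.31 in section 2 alone. The comparison spots are all the rest of each section, so a lower level of a gene used by many neurons is relative to that mixture. Of 21 nuclear oxidative phosphorylation genes 1 was higher, Ndufb8 (0.44 ± 0.10). This share, 4.76%, is near the 2.60% over all tested genes. Of 13 mitochondrially encoded genes 0 were called.

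**Figure D5:**
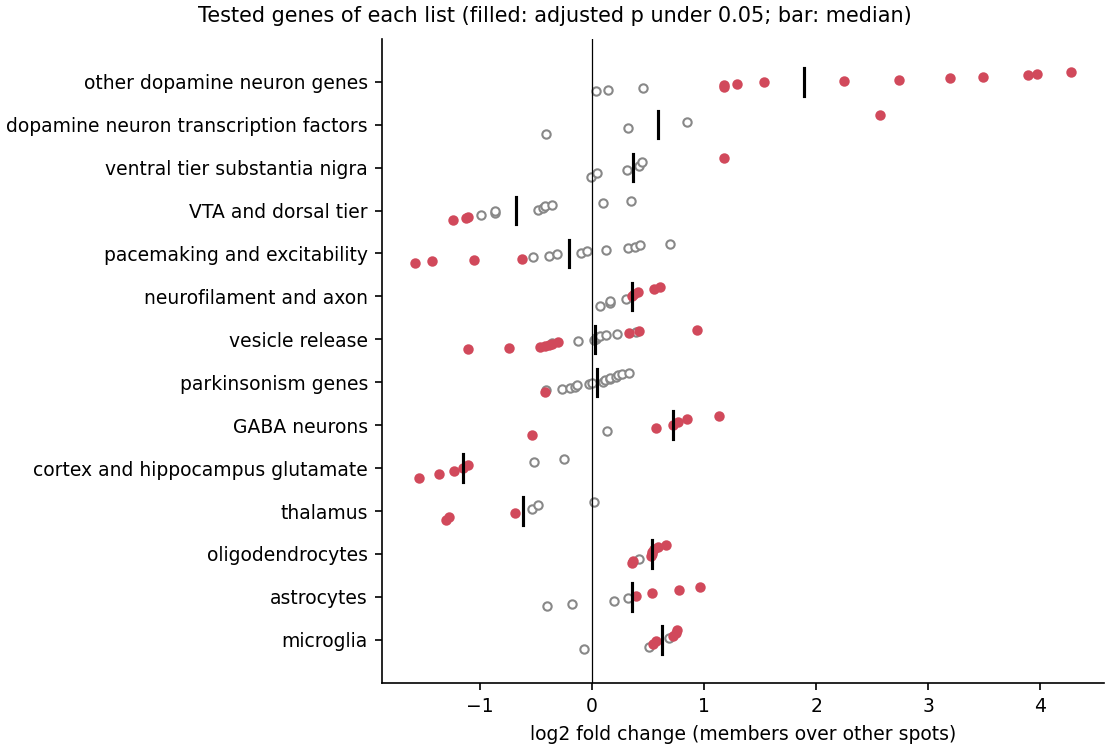
log2 fold change of marker spots over other spots (x axis) for the tested genes of 14 lists (y axis). Filled points are called genes, open points are not called and bars are list medians; the dopamine neuron list reaches farthest to the right, with 3 of its points tested only through the marker spots, and the median of the list of cortical and hippocampal glutamate neurons lies farthest to the left at -1.15.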

How the data were processed

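Per the labels, polyadenylated RNA of 2 brain sections was measured with Visium. The deposited values are whole-number UMI counts per gene (32285 genes) and spot, not normalized; per the file headers the authors made them with Space Ranger 1.2.2 (section 1) and 2.0.1 (section 2), whereas mm10 and 2.0.1 for both sections stand in the submitters' processing notes, so version and section cannot be told apart. Genes were counted on an annotation with a release not given in the sources used here. Totals were 58662871 and 55851559 UMIs. Spots under 500 UMIs (137 of 3167 and 2 of 2533) were dropped and spot positions were not used. No doublet caller was run. The array barcodes are the same kind in both sections, and 1965 are shared, 0 among the marker spots.

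The marker spots (852151 and 251857 UMIs) were compared with the others in edgeR 4.0.16 (R 4.3.3; TMM factors; mean CPM of at least 5; design section plus class; 1 residual degree of freedom, so the spread was pooled over genes). The prior degrees of freedom were infinite, so a gene's own disagreement between the sections carried no weight in its p-value. A small p-value is thus no measure of how well the sections agree. The 4 scoring genes were left out. The SE is the log2 fold change divided by the square root of F. A section alone leaves no residual degrees of freedom and gets no test. On simulated data over 11251 genes, 100% of 4-fold and 68% of 2-fold rises, 76% of 4-fold and 38% of 2-fold falls and 0.0814% of unchanged genes were called. The simulated counts used the fitted common dispersion and the same gene shares in both sections. The rate for unchanged genes is therefore not a rate of false calls in the real data, where sections can differ. Alternatives were DESeq2 1.42.0, scalings, filters, member numbers, other scores and other comparison spots. Named genes are those of 5 dopamine lists, the 15 largest rises with at least 10 UMIs in both member sums, the 8 largest falls with at least 10 expected, and up to 4 called genes of each other list; Sst, Sncb, Snap25, Hbb-bs and the serotonin and noradrenaline genes that were not tested were named after their values were seen. Some genes that the rule names are left out of the text. The members and lists were chosen with earlier results of these data known. Rank bins, the count of genes that pass by the other spots alone, the motifs and their window, and the 2 fits without Dbh or Slc6a3-negative spots were chosen after values were seen. RefSeq positions (GRCm38.p6) matched 276 of 289 genes, and promoter windows 16 of 21. Thinning and figures used Python 3.11.15.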

Additional observations from a re-analysis of the deposited data

How the results depend on the processing

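The number of called genes depended on the fit. Against 292 higher and 346 lower genes, DESeq2 called 46 and 60 (all among those genes; it gave no adjusted p for 6544 genes), the fit without a term for the section, that is without the replicate block, called 2 and 0, 30 and 8 members gave 98 and 189, 15 and 15 members gave 4 and 6, and no filter on low counts gave 125 higher. Because both spot classes of a section come from 1 piece of tissue, the section number pairs them by design. In the other fits the counts stayed within 1.5 times, at 196 to 389 higher and 251 to 417 lower. Without the 2 Dbh spots they were 270 and 325, and with only marker spots holding Slc6a3 196 and 279; both were added after seeing the data. Of 101 named and tested genes 75 were called. Gfap, called at 0.40, was at -0.30 with 30 and 8 members, -0.55 with 15 and 15, -0.17 with a score without Slc18a2, -0.0795 with members by Slc6a3 alone and -0.47 with only marker spots holding Slc6a3. With 15 and 15 members Aqp4 was at -0.076 and C1qc at -0.14. Without replicate 1 and without replicate 2, Drd2 was at -0.081 and 1.68, Sv2c at -0.31 and 1.25, and C1qc at -0.066 and 0.87. The cause of these changes was not tested. Shares of spots with a UMI moved with the thinning: without it Ret was in 61.7% and 66.7%, Slc10a4 in 53.3% and 60% and Dlk1 in 61.7% and 60% of marker spots, and at 6000 UMIs Ret was in 48.1% and Slc10a4 in 38.9% in section 1. The depth of the 15 spots of section 2 limits genes under 11.9 CPM, the level of 3 UMIs.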
